A study of Mus musculus with 13 samples.

Results

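Of 24673 peaks of the glucocorticoid receptor (GR, encoded by Nr3c1) listed for mouse embryonic fibroblasts under dexamethasone with lipopolysaccharide, 1327 lay inside a gene body and were called in wild-type and mutant cells alike. They were chosen by measured values. Each stood in the authors' list of peaks shared by both genotypes, was placed inside a gene by their annotation, and had its centre more than 1000 bp from that gene's start. These 1327 peaks, here called shared body peaks, were assigned to 954 genes. They made up 37.6% of the 3533 shared peaks. Wild-type-specific and mutant-specific peaks chosen by the same position rule numbered 8096 and 843. The edge of the rule was narrow. Peaks in Plk2, Ptpn12 and Ddx39b at 1004, 1007 and 1020 bp from the start were just inside it, and peaks in Akna, Rab32 and Tnfaip3 at 974, 947 and 944 bp were just outside.

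Fibroblasts had been prepared from C57BL/6 male embryos (embryonic day 13.5) and kept in culture for 7 days. Wild-type cells carried GR wt / wt, mutant cells GR Zn / Zn, an allele that alters a zinc finger of the DNA-binding domain, and knockout cells had no functional receptor gene by their label. All cells received dexamethasone (Dex, 1 µM, 16 h), a synthetic agonist of the receptor. In 9 samples this was combined with lipopolysaccharide (LPS), the endotoxin of Gram-negative bacteria that activates NF-kB, which the labels give as 100 ng/µl for 3 h. These were 3 wild-type, 4 mutant and 2 knockout samples. Another 4 samples had Dex alone, 2 wild-type and 2 mutant. The Dex+LPS data were merged lists with peaks of knockout cells removed, so they show no spread between samples. All their peaks were 200 bp wide and carried no height, score or count. The depth behind them is unknown, and whether a missing mutant peak reflects weaker binding or a weaker call cannot be told apart.

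GR is a nuclear receptor that stays in the cytoplasm until a glucocorticoid binds it. In the nucleus it can bind DNA directly as a dimer, through its zinc fingers, at a palindrome of AGAACA and its reverse complement spaced by free bases. It can also be recruited by other DNA-bound factors such as AP-1 and NF-kB. Most GR sites lie far from gene starts, and introns hold many of them, since enhancers are often found within genes.

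Some peaks inside an annotated gene lay at a start that RefSeq gives for another transcript. The first base of any RefSeq transcript was within 1 kb of 64 of the 1293 shared body peaks that could be assessed (4.95%). For wild-type-specific and mutant-specific body peaks this share was 3.54% and 5.85%, and for shared peaks between genes 8.05%. A RefSeq promoter window, from 250 bases before to 50 after the start, was overlapped by 27 shared body peaks (2.09%). Of these, 19 lay at another start of the assigned gene and 8 at the start of a different gene. The genes of this paragraph and the next were chosen after their values were seen.

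The sequences below belong to 6 of these peaks and are RefSeq promoter bases of GRCm38.p6, the assembly of mm10, read 5′ to 3′ on the strand of the transcript, plus for Il1rl1 and Ifi47 and minus for the others. They are shown because each peak counts as a body peak while it covers a transcript start or the bases next to one. Il1rl1 encodes ST2, the receptor of interleukin-33, and has a distal and a proximal promoter. A peak at chr1:40439643-40439842 was centred 114 bp from the proximal start and covered the last 36 bases of the window chr1:40439379-40439678, printed whole. Runx1, a regulator of blood and skeletal development, likewise has a distal and a proximal promoter, and a peak at chr16:92697385-92697584 lay beside the latter. Atf3 encodes a stress-induced AP-1 partner, and its peak at chr1:191183263-191183462 was centred 30 bp from a RefSeq start. The interferon-induced GTPase gene Ifi47 had its peak at chr11:49076417-49076616, centred 70 bp from a start, and the interferon-inducible gene Ifi211 at chr1:173913002-173913201, centred 56 bp from a start. The peak assigned to Lgals1, the gene of galectin-1, at chr15:78928094-78928293 lay in the window of Gm30368 on the opposite strand. Capitals mark an NF-kB and a TEAD match in Il1rl1, an interferon-stimulated element match in Ifi211, and an AP-1 and a TEAD match in Gm30368. The lines after Il1rl1 hold the part of the window that the peak covered.
Il1rl1 proximal window: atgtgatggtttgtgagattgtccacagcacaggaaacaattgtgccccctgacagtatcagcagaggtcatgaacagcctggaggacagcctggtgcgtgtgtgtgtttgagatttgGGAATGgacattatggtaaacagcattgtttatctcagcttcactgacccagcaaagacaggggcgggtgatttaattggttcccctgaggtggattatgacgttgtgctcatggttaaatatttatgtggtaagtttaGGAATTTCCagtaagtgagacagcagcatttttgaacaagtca
Runx1: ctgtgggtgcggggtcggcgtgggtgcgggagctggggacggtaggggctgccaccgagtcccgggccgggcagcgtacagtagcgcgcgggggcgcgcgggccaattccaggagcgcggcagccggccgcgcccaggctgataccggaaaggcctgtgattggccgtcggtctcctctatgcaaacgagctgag
Atf3: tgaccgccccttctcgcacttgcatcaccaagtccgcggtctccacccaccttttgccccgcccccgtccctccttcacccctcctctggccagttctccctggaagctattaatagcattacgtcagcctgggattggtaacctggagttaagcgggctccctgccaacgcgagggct
Ifi47: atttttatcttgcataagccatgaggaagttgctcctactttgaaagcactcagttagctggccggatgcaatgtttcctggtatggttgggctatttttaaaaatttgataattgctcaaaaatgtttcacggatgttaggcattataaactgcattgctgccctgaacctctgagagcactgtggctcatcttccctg
Ifi211: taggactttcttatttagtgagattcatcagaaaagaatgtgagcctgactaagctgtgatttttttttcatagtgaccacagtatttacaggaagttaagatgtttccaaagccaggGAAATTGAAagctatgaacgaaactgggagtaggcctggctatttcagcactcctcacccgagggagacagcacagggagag
Gm30368 in Lgals1: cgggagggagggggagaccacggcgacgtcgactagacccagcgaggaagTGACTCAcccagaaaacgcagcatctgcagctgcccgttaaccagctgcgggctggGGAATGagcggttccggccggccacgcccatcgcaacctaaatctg

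The TEAD match in Il1rl1 lay outside the peak, and the NF-kB match crossed the first base of the peak and lay mostly before it. Motifs were searched as exact letters on both strands of the 31 windows that shared body peaks overlapped. ACANNNTGT, the core of the GR palindrome, was in 1 of these windows, that of Ifi47 (3.23%, against 6.85% of all 32817 RefSeq windows). TGANTCA, the AP-1 site, was in 5 (16.1% against 7.81%), and GGANNTTCC, an NF-kB site, in 1 (3.23% against 4.26%). TTCNNTTTC, the interferon-stimulated element, was in 5 (16.1% against 8.55%), and CATTCC, the TEAD site, in 8 (25.8% against 14.7%). The 31 windows came from 27 peaks and are not independent. The Lgals1 peak overlapped more than 1 window with the same AP-1 and TEAD matches, and the Rras peak more than 1 with TEAD. In the bases shared by peak and window, AP-1 matched only at Lgals1, and TEAD only at Lgals1 and Map3k20. The full palindrome was in 0 of the 31 and in 3 of all windows (0.00914%). At the 125 windows of wild-type-specific body peaks, AP-1 matches stood at 21.6%. A match is a description of letters, and the 31 windows are a small and unusual share of the peaks. A genome of this build was not used here, so the sequence under the other shared body peaks was not searched.

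MicroRNA genes often sit inside longer genes, and 31 shared body peaks (2.34%) lay within 20 kb of a RefSeq hairpin. The share was 2.74% for wild-type-specific and 4.74% for mutant-specific body peaks and 2.39% for shared peaks between genes. Vmp1, a gene of autophagosome formation, overlaps the transcript of miR-21a, and 2 of its peaks lay 8.92 and 12.2 kb from the hairpin. Dnm3os, a non-coding RNA that carries miR-199a and miR-214, had a peak 2.55 kb from the Mir214 hairpin. Peaks in Dnm3 and Dnm2, the genes around Mir199a-2 and Mir199a-1, lay 10.0 and 0.340 kb from those hairpins. The non-coding gene 3110039I08Rik held peaks 1.66 and 15.9 kb from Mir100 and 13.7 kb from Mir125b-1. The mature microRNAs are printed with the seed, bases 2 to 8, in capitals, since the seed sets which messages they pair with. No seed was shared among these 6. The sequences are from RefSeq. These hosts were chosen after their values were seen, and no microRNA level was measured.
miR-21a-5p: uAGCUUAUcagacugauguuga
miR-199a-5p: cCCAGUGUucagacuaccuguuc
miR-199a-3p: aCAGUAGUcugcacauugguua
miR-214-3p: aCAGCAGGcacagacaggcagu
miR-100-5p: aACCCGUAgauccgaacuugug
miR-125b-5p: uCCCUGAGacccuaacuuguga

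Within genes, shared and wild-type-specific peaks were placed alike, and mutant-specific peaks lay nearer to starts. The median distance to the gene start was 47.0 kb for shared body peaks (quartiles 13.4 and 125 kb), 47.3 kb for wild-type-specific and 17.9 kb for mutant-specific body peaks. Peaks from 1 to 5 kb made up 12.4%, 10.2% and 25.3% of the sets in that order, and peaks beyond 100 kb 30.4%, 31.3% and 19.3%. Along the gene, cut into 5 equal parts from start to end, shared body peaks were spread at 18.8, 23.4, 20.9, 17.0 and 19.9%. Position chose these peaks, so these values are a description without a test.

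As a share of all wild-type body peaks, 14.1% (1327 of 9423) were also called in the mutant. For wild-type peaks between genes this share was 16.2%, and at gene starts, counting those within 1 kb inside the gene, 21.2%. By distance it was 16.6% at 1 to 5 kb, 13.4% at 5 to 20 kb, 14% at 20 to 100 kb and 13.7% beyond. Read from the mutant side, 61.2% of its 2170 body peaks were shared, and this share went from 43.5% at 1 to 5 kb to 52.2, 68.2 and 71.3% in the same steps. Far from the start most mutant body peaks were thus also wild-type peaks. The 34 shared body peaks of chromosome 18 were left out of the comparison with RefSeq starts, because no promoter windows were used there. By chromosome, the shared part of the wild-type body peaks lay between 10.6% (chromosome 16) and 18.6% (chromosome 13).

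Shared body peaks had other GR peaks close by. Another shared peak lay within 5 kb of 20.6% of them, a wild-type-specific peak of 37.8% and a mutant-specific peak of 12.4%. Of wild-type-specific body peaks, 7.62% had a shared peak and 29.5% another wild-type-specific peak in that distance. Mutant-specific body peaks stood nearest to their own kind, with another mutant-specific peak within 5 kb in 44.0%. They had a shared peak in that distance in 23.3% and a wild-type-specific peak in 35.9%, much as shared body peaks did. Of the 954 genes with a shared body peak, 689 (72.2%) also held a wild-type-specific body peak, 187 (19.6%) a mutant-specific one and 149 (15.6%) both. In 227 genes (23.8%) shared peaks were the only body peaks. A shared peak at the gene start was present in 41 (4.30%). Over all protein-coding genes, 15.8% held a wild-type-specific and 2.25% a mutant-specific body peak. In those of 100 to 300 kb it was 53.2% and 6.09%, and in longer ones 72.9% and 14.7%. Protein-coding genes with a shared body peak had a median length of 106 kb, and genes of matched length were not compared.

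Most genes held a single shared body peak (739, 77.5%), 142 held 2, and 73 held 3 or more. The 10 genes with the most were Mir3084-1 (27), Gm21119 (14), Zfp982 (8), Il1rl1 and Vmp1 (7 each), Ctnna3, Fhit, Tm4sf1 and Tnc (6 each) and 3110039I08Rik (5). The first 3 of these counts need care. The files give the microRNA Mir3084-1 a span from 24942235 to 60774397 on chromosome 19, and none of its 27 peaks lay in a protein-coding gene of RefSeq. Gm21119 spans 911128 bp and Zfp982, a zinc finger gene, 381328 bp, and reads of repeated genes could be shared among copies there. Over all shared body peaks, 1247 lay within the RefSeq span of the assigned gene and 80 outside it. Of these 80, 61 lay in no RefSeq gene. Among all shared body peaks 16 lay in more than 1 protein-coding gene and 155 in none.

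In Il1rl1 (chromosome 1, 40429570 to 40465415) the 7 shared peaks filled a stretch of 13.1 kb, from 6.61 to 19.5 kb after the deposited start. Beside them stood 2 wild-type-specific peaks and no mutant-specific peak, so 77.8% of the wild-type body peaks of this cytokine receptor gene were shared. Vmp1 (chromosome 11, 86583865 to 86683822) had 7 shared, 4 wild-type-specific and 3 mutant-specific body peaks. Its shared peaks formed a group at 31.2 to 37.2 kb and another at 69.7 to 90.6 kb. Tm4sf1, a membrane protein of motile cells, had 6 shared peaks between 7.01 and 13.8 kb in a gene of 14856 bp, with 2 peaks of each other class. Tnc, the gene of tenascin-C in the matrix of remodelling tissue, had 6 shared, 17 wild-type-specific and 9 mutant-specific body peaks. Of its 6, 5 lay between 22.3 and 27.6 kb from the start (chromosome 4, 64019359 to 64024816), within a gene of 87231 bp.

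The long genes showed another layout. Ctnna3, an alpha-catenin of cell junctions, had 6 shared and 14 wild-type-specific body peaks spread from 86.9 to 1391 kb for the shared ones. Fhit, which lies at a common fragile site, had 6 shared and 10 wild-type-specific body peaks. Its shared peaks stood in 3 pairs, near 551, 1048 and 1304 kb from the start. In 3110039I08Rik 5 shared peaks stood with 13 of each other class. Per 100 kb of gene, Ctnna3 and Fhit had 0.381 and 0.372 shared peaks, Vmp1 7.00, Il1rl1 19.5 and Tm4sf1 40.4. Chosen by that density after the values were seen, the first among genes with 3 or more shared body peaks were Rgs16, a brake on G protein signalling (58.6, 3 peaks in 5116 bp), Plk2, a stress-induced kinase (51.7), and Klf6 (44.9). Vim, the vimentin gene that marks fibroblasts, followed Tm4sf1 with 35.2, from 3 shared and 1 wild-type-specific body peak.

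**Figure D1:**
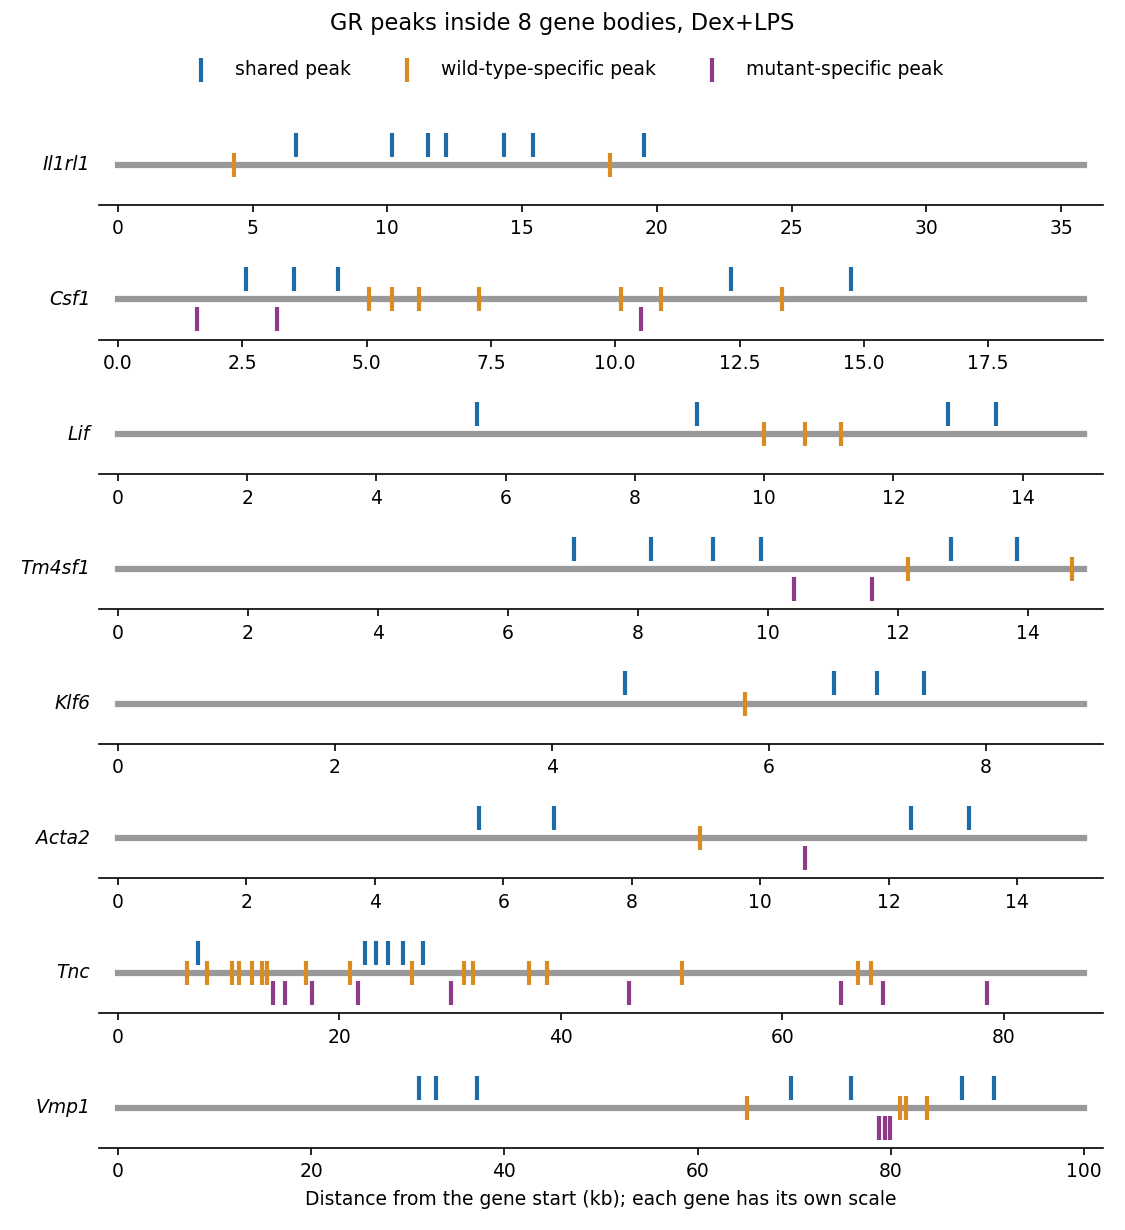
Positions of GR peaks of the 3 Dex+LPS classes along 8 gene bodies, in kb from the gene start to the gene end as the files give them (grey bar, own scale per gene). Blue marks above the bar are shared peaks, orange marks on it wild-type-specific peaks and purple marks under it mutant-specific peaks; the 5 neighbouring shared peaks of Tnc stand between 22.3 and 27.6 kb, and Il1rl1, Lif and Klf6 have no purple mark.

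In 27 genes with 2 or more shared body peaks no wild-type-specific body peak was listed, so every wild-type body peak there was also a mutant peak. They stood among 142 genes with 2 shared body peaks and 73 with 3 or more. Of all 954 genes 72.2% held a wild-type-specific body peak, so lacking one was less common among genes with 2 or more shared body peaks than over all 954. Rgs16, the glutamate transporter gene Slc1a6 and the germ cell gene Tex14 had 3 each. Others among the 27 have known roles in growth control, inflammation or the nucleus. The cell cycle inhibitor Cdkn1a had 2 shared and 1 mutant-specific body peak. Tnfaip3, which encodes the NF-kB inhibitor A20, had 2 shared and 5 mutant-specific body peaks, and Zc3h12a, an RNase that degrades cytokine messages, had 2 and 1. Neat1, the RNA scaffold of paraspeckles, had 2 and 5, and the tendon regulator Mkx had 2 and 1. All were picked from the 27 after their values were seen, apart from Cdkn1a and Tnfaip3.

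Longer genes more often held a shared body peak. Of 21887 protein-coding genes, 871 (3.98%) had one, 3456 (15.8%) a wild-type-specific and 492 (2.25%) a mutant-specific body peak. For genes up to 20 kb the shared value was 0.793%, and it was 3.06% at 20 to 50 kb, 6.76% at 50 to 100 kb, 15.7% at 100 to 300 kb and 28.4% beyond. Wild-type-specific body peaks were in 3.83% of the shortest and 72.9% of the longest genes, mutant-specific ones in 1.02% and 14.7%. The median length was 106 kb for protein-coding genes with a shared body peak and 17.2 kb for all protein-coding genes. Median gene lengths are therefore given with the gene lists below.

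**Figure D2:**
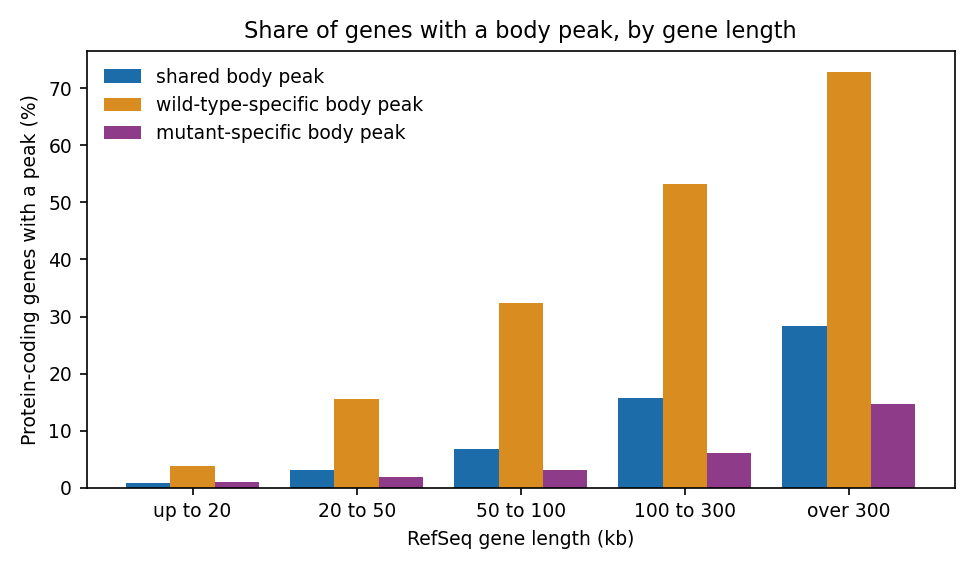
Percent of protein-coding genes (y axis, bars from 0) with at least 1 body peak of each class, for 5 classes of RefSeq gene length in kb (x axis). The share of genes with a shared body peak (blue) was 0.793% in genes up to 20 kb and 28.4% in those over 300 kb, and the other classes were also higher in longer genes.

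Genes of 3 fibroblast lists held shared body peaks most often. Among other DNA-binding regulators of fibroblasts it was 17 of 44 genes (38.6%, exact 95% interval 24.4 to 54.5%), with a median length of 88.3 kb. Among adhesion, actin and focal adhesion genes it was 19 of 51 (37.3%, 24.1 to 51.9%, median 64.0 kb), and among extracellular matrix genes 14 of 40 (35%, 20.6 to 51.7%, median 40.8 kb). All protein-coding genes had one in 3.98%, those of 50 to 100 kb, which hold the first 2 medians, in 6.76%, and those of 20 to 50 kb, which hold the last, in 3.06%. The class of a median does not match the length of each gene. In the first 2 lists most genes with a shared body peak were over 100 kb, such as Foxp1 (596 kb) and Lpp (599 kb). Protein-coding genes of 100 to 300 kb had one in 15.7%, and longer ones in 28.4%. In the matrix list most genes with one were over 50 kb. The same lists held wild-type-specific body peaks in 68.2%, 58.8% and 62.5% of genes. The intervals cover counting error only, and active genes of similar expression were not set beside these lists.

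Among the DNA-binding regulators, Klf6, a zinc finger factor of injury responses, had 4 shared body peaks and 1 wild-type-specific one within 2.95 kb of a gene of 8905 bp. Prrx1, which marks limb and skin fibroblasts, had 3 shared, 4 wild-type-specific and 2 mutant-specific body peaks, and 2 of its shared peaks lay 1.45 and 2.48 kb from the start. Smad3, which carries TGF-beta signals, had 3 shared and 3 wild-type-specific body peaks at 41.6 to 55.2 kb for the shared ones. The other genes of the list with 2 or more shared body peaks had more wild-type-specific than shared ones. Foxp1 had 3 shared against 22 wild-type-specific body peaks, Runx1 3 against 13, Arid5b, a regulator of fat and cartilage development, 3 against 11, Nfia 2 against 7 and Runx2, the master gene of bone formation, had 2 against 4. Creb5, Ets1, Nfib and Nfil3 had 1 shared body peak each, beside 4, 6, 5 and 0 wild-type-specific ones. In the list as a whole 17.8% of the wild-type body peaks were shared, beside 14.1% over all genes.

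Matrix genes with several shared body peaks encoded structural proteins and the enzymes that build or cut them. Beside Tnc, collagen III (Col3a1) had 3 shared, 2 wild-type-specific and 1 mutant-specific body peak, all 3 shared ones within 6.92 kb of the start. The basement membrane collagen Col4a2 had 3, 5 and 2 in the same order, and the fibrillin gene Fbn1 3, 5 and 3. The shared peaks of Fbn1 lay near the end of the gene, 189 to 205 kb from its start. The collagen crosslinkers Loxl1 and Loxl2 had 2 shared body peaks each, with 1 and 4 wild-type-specific ones, and the membrane protease Mmp14 had 2, 1 and 1. Col4a1, Col6a3, the small proteoglycan gene Dcn and Fbln5 had 1 each.

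Among adhesion and actin genes, Cald1, which encodes caldesmon of actin filaments, had 5 shared, 14 wild-type-specific and 1 mutant-specific body peak. Acta2, the smooth muscle actin of myofibroblasts, had 4 shared and 1 of each other class in a gene of 15038 bp. Lpp, a focal adhesion protein, had 4 shared against 22 wild-type-specific body peaks, and the TGF-beta co-receptor gene Tgfbr3 4 against 6. The hyaluronan receptor Cd44 had 2, 9 and 4, Tns3 2 against 8, and Myh9 and Pdlim5 2 against 7 each. The latent TGF-beta binding proteins differed, with 2 against 11 in Ltbp1 and 2 against 1 in Ltbp2. Itgav, Itgb5, Limch1 and Palld had 1 shared body peak each.

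Inflammatory genes of the NF-kB pathway were short (median 10.8 kb) and held shared body peaks in 7 of 43 (16.3%, 6.81 to 30.7%). Genes up to 20 kb, the class of that median, held them in 0.793%, but the list also has longer genes such as Il1rl1 (35.8 kb). Wild-type-specific body peaks were in 41.9% of the list and mutant-specific ones in 16.3%. In genes up to 20 kb these were in 3.83% and 1.02%. Of the list's wild-type body peaks 36.1% were shared (22 of 61), and Il1rl1 gave 7 of the 22. Csf1, a growth factor of macrophages, had 5 shared, 7 wild-type-specific and 3 mutant-specific body peaks. Lif, a cytokine of the interleukin-6 family, had 4 shared and 3 wild-type-specific ones. The adhesion molecule Vcam1 had 2 shared, 1 wild-type-specific and 4 mutant-specific body peaks, Tnfaip3 2, 0 and 5. Il6 and the prostaglandin synthase gene Ptges had 1 shared body peak each.

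Among known GR targets a shared body peak was in 3 of 30 (10.0%, 2.11 to 26.5%, median 14.1 kb), while 13 (43.3%) had a wild-type-specific and 6 a mutant-specific body peak. In the inflammatory list 41.9% had a wild-type-specific body peak, and the lists were not tested against each other. Of the wild-type body peaks in known GR targets, 10.2% were shared (5 of 49). The 3 genes were Cdkn1a with 2, Tnfaip3 with 2 and Per1 with 1. Of circadian clock genes (median 32.7 kb) 4 of 20 held 1 shared body peak each, namely Nfil3, Per1, Per2 and Rora. Wild-type-specific body peaks were in 8 of the 20 clock genes (40.0%) and mutant-specific ones in 0. In all protein-coding genes the shares were 15.8% and 2.25%, so 0 of 20 is not an unusual count. In the AP-1 family (median 9.39 kb) 4 of 14 (28.6%, 8.39 to 58.1%) held 1 each, namely Atf3, Batf, Fosl2 and Jund. Wild-type-specific body peaks were in 5 of these 14 genes (35.7%). Interferon response genes (median 18.2 kb) had shared body peaks in 2 of 28 (7.14%), Ifit2 with 2 and Ifi47 with 1, and mutant-specific ones in 13 (46.4%). Over all protein-coding genes these shares were 3.98% and 2.25%. With a minimum distance of 5000 bp, chosen after seeing the data, the counts were 1 for GR targets, 2 for clock genes, 2 for the AP-1 family and 1 for interferon genes. Ifi47 and Atf3 had their peak centres outside the RefSeq span of the gene.

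Markers of other cell types held shared body peaks in 3 of 77 genes (3.90%), near the 3.98% of all protein-coding genes. Muscle, neuron, epithelial and hepatocyte markers had 0 of 14, 13, 10 and 12 genes, with upper interval bounds of 23.2, 24.7, 30.8 and 26.5%. Among macrophage markers Mrc1, the mannose receptor, was 1 of 16. Among endothelial markers Pecam1 and Tek were 2 of 12. A peak does not measure expression, so these counts do not check the cell type by RNA.

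**Figure D3:**
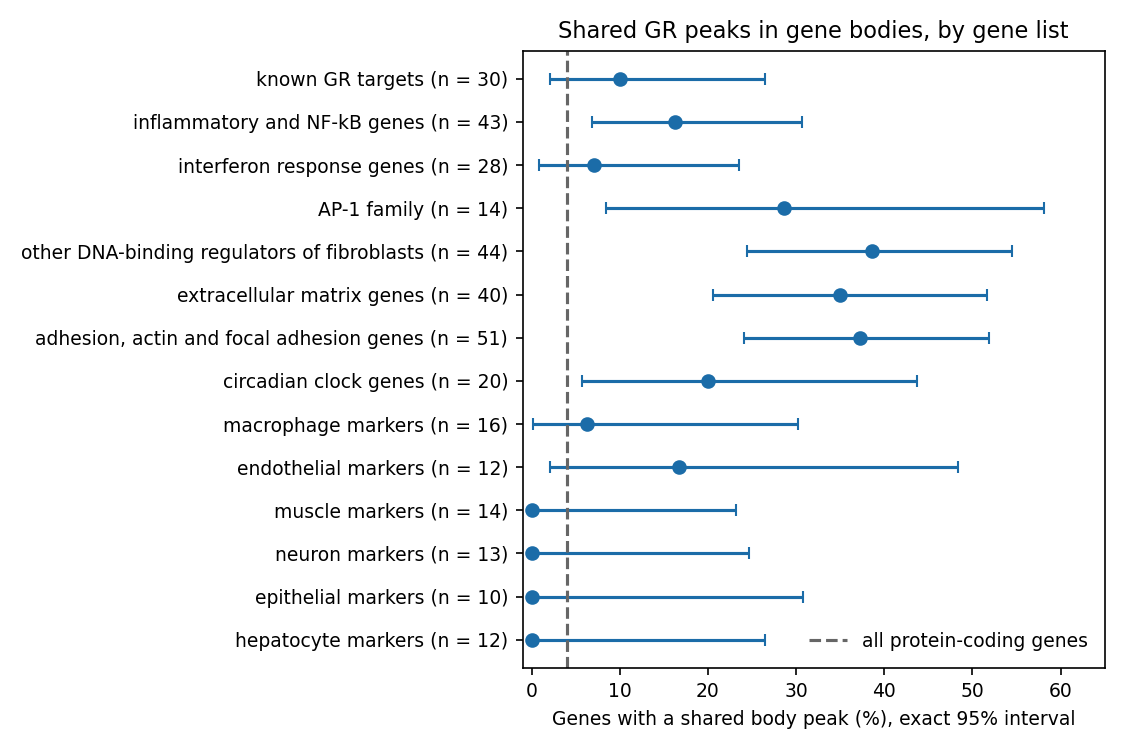
Percent of genes with at least 1 shared body peak (x axis) in each of 14 gene lists (y axis, n genes in brackets), with exact 95% binomial intervals as bars. The dashed line stands at 3.98%, the value for all protein-coding genes; the DNA-binding, matrix and adhesion lists lie at 35 to 38.6%, and muscle, neuron, epithelial and hepatocyte markers at 0.

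The Dex libraries, which received no LPS, had no part in choosing the peaks, and their lists were used to ask which shared body peaks were found again without LPS. Wild-type library 1 overlapped 10 of the 1327 (0.754%, exact 95% interval 0.362 to 1.38%) and library 2 overlapped 27 (2.03%, 1.35 to 2.95%). Mutant library 1 overlapped 0 (exact interval up to 0.278%, or 0.226% when bounded with 3 counts), and mutant library 2 overlapped 1 (0.0754%). Over all 24673 Dex+LPS peaks the libraries overlapped 0.426%, 0.843%, 0% and 0.00811%. The libraries differ in size, with 412 and 854 wild-type and 53 and 60 mutant peaks. Of each library's own peaks, 2.43 and 3.16% lay at shared body peaks in the wild type, 0% (interval up to 6.72%) and 1.67% (0.0422 to 8.94%) in the mutant, so on this scale the intervals overlapped. Both wild-type numbers were above both mutant numbers, with means of 18.5 ± 12 and 0.500 ± 0.707 peaks (SD, n = 2 each). The difference was 3.63 on the log2(number + 1) scale, or 2.40 without chromosomes 10 to 14, and the two-sided exact permutation p of 0.33 is the smallest that 2 against 2 libraries can give. Nothing says whether the Dex libraries came from separate cultures.

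Shared body peaks were found again more often than wild-type-specific body peaks, most clearly in library 2. In library 1 of the wild type the shares were 0.754% and 0.259% (21 of 8096), a difference of 0.49 percentage points (two-sided Fisher's exact test, Benjamini-Hochberg adjusted over 12 tests, p = 0.0316). This call did not hold with 1 peak per gene (0.28 points, adjusted p = 0.531, Fisher's exact test), beyond 5000 bp (adjusted p = 0.0663) or with an overlap of at least 100 bp (adjusted p = 0.179). In library 2 they were 2.03% and 0.445% (36 of 8096), a difference of 1.59 points and a ratio of 4.58 (Fisher's exact test, adjusted p = 2.82e-07). Against mutant-specific body peaks the difference was 1.68 points in library 2 (3 of 843, 0.356%, adjusted p = 0.00569) and 0.28 points in library 1 (4 of 843, 0.474%, adjusted p = 0.878, Fisher's exact test for both). Shared peaks between genes were overlapped in 1.14% by library 1 and 3.15% by library 2, and the differences of -0.39 and -1.12 points did not pass (adjusted p = 0.718 and 0.175, Fisher's exact test). No difference passed in a mutant library. These tests compare lists of peaks, not samples, and peaks of 1 gene are not independent. With 1 peak per gene the difference from mutant-specific body peaks in library 2 did not pass (1.51 points, adjusted p = 0.101, Fisher's exact test).

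Chromosomes 10 to 14 carried much of this. They held 31.5% of the shared body peaks, but 68.2 and 73.9% of the peaks in the wild-type Dex libraries. In the mutant Dex libraries the values were 26.4 and 31.7%. Of the 37 shared body peaks found again in any Dex library, 28 lay there. Without these chromosomes the differences from wild-type-specific body peaks were 0.11 points in library 1 and 0.46 in library 2, and neither passed (Fisher's exact test, adjusted p = 1.00 and 0.298). The difference from mutant-specific body peaks in library 2 became 0.66 points (adjusted p = 0.348, Fisher's exact test). The differences from shared peaks between genes changed sign, to 0.14 and 0.57 points, and did not pass there either (adjusted p = 1.00 and 0.324, Fisher's exact test). The part of these chromosomes in the result was not tested further.

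The peak found in both wild-type Dex libraries was that of Per1, a clock gene and GR target (chromosome 11, 69096987 to 69097186), 1.83 kb from the start. The mutant Dex peak lay in Ncoa1, which encodes a coactivator of nuclear receptors (chromosome 12, 4417735 to 4417934), 59.3 kb from its start, and no wild-type Dex library overlapped it. The other 35 were found in 1 wild-type library each, and the following were picked from them after their values were seen. Library 2 overlapped 2 peaks of the laminin gene Lama2, 154 and 261 kb from its start, and 1 of Vmp1 at 87.4 kb, the peak 12.2 kb from Mir21a. Library 2 also overlapped a peak of Fmo2, a drug-metabolising monooxygenase, at 6.55 kb, and one of Fhit at 1303 kb. Library 1 overlapped peaks of Ctnna3 at 346 kb, of the potassium channel gene Kcnma1 at 600 kb and 2 of Cpq. Of the 32 shared body peaks of Il1rl1, Tm4sf1, Tnc, Csf1, Lif and Klf6, 0 were overlapped in a Dex library, beside 2.79% of all shared body peaks. At that share 0 of 32 is not an unusual count, so it does not set these genes apart. Il1rl1, Tm4sf1, Tnc and Csf1 also lie outside chromosomes 10 to 14, which held 28 of the 37 peaks found again.

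**Figure D4:**
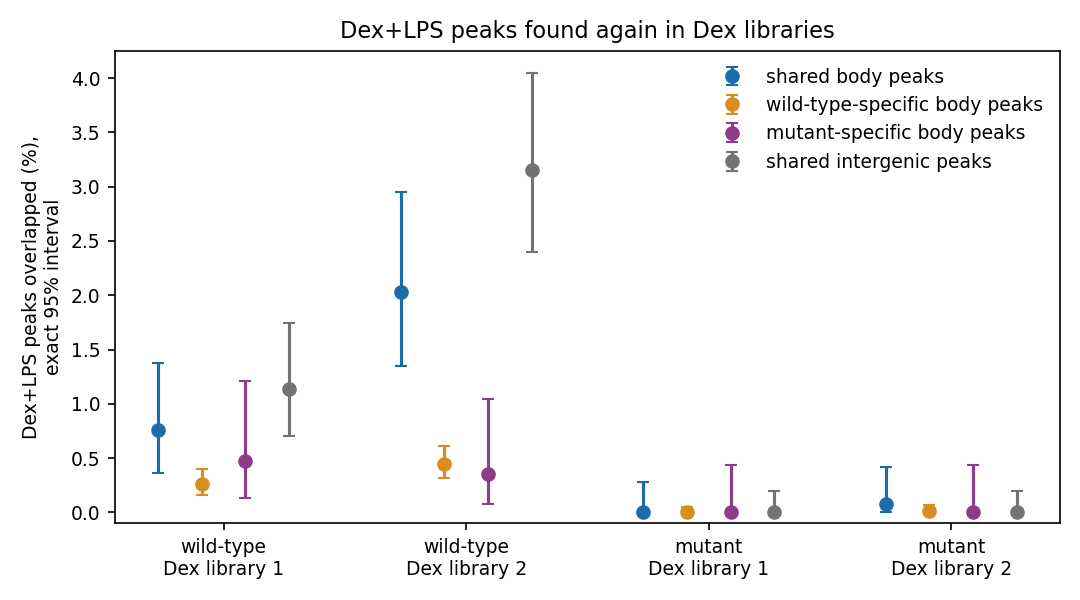
Percent of Dex+LPS peaks (y axis) overlapped by at least 1 bp by a peak of each of the 4 Dex libraries (x axis), for shared, wild-type-specific and mutant-specific body peaks and shared peaks between genes, with exact 95% binomial intervals as bars. In wild-type library 2 shared body peaks stood at 2.03% and wild-type-specific ones at 0.445%; in both mutant libraries all values were below 0.1%.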

How the data were processed

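GR ChIP-seq was measured in 13 samples of mouse embryonic fibroblasts. The authors deposited peak positions in base pairs and distances to genes, with no other value per peak. Per the submitters' processing notes, BWA 0.7.13, Picard 1.119, MACS2 2.1.0 and mm10 were used, with roles not given. Per the file names, Dex+LPS libraries were merged by genotype and knockout peaks removed. The merging rule and control are not given in the sources used here, and depth is unknown. More or deeper libraries can give more peaks. The deposited distance ran from peak centre to gene start for 1327 of 1327 peaks. Of these, 1325 had an Entrez identifier in the RefSeq table.

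Overlap meant at least 1 bp. Intervals are Clopper-Pearson (95%) and cover counting error only; a count of 0 in a Dex library is also bounded with 3 counts. Peak sets were compared by Fisher's exact test over 12 pairs, and Dex libraries by an exact permutation test on log2(number + 1), 1 being added because a library had 0. The replicate numbers of the Dex libraries share only a number: nothing ties them to a common embryo or day. The overlap and test code was tested on simulated data. Coordinates are 1-based. Computation ran in Python 3.11.15 (scipy 1.17.1, pandas 2.3.3, numpy 2.4.6) and figures in matplotlib 3.10.9.

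The planned motif and exon tests over all peaks were not run, since neither a genome nor an exon annotation was used. The members and the gene lists were chosen with earlier results of these data known. Named were the 10 genes with most members, list genes with 2 or more members and up to 4 further ones per list in alphabetical order, and members found in both wild-type or any mutant Dex library; a gene that this rule names is not reported here. The alternatives were a 5000 bp distance, no chromosomes 10 to 14, no genes over 2 Mb, 1 peak per gene, 100 bp overlap, and each library left out.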

Additional observations from a re-analysis of the deposited data

How the results depend on the processing

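The number of shared body peaks was 1163 beyond 5000 bp, 909 without chromosomes 10 to 14 and 1300 without genes over 2 Mb. Of 60 alternative values for the peaks found again in Dex libraries, 33 kept their direction and their side of the threshold, 7 lost the call, 3 reversed direction without a call, and in 17 no peak of either set was overlapped. The 3 reversals came without chromosomes 10 to 14: wild-type libraries 1 and 2 gave 0.14 and 0.57 points against shared peaks between genes, and mutant library 2 gave -0.02 against wild-type-specific body peaks. For wild-type library 1 against wild-type-specific body peaks the difference (percentage points, Fisher's exact test) was 0.49 beyond 5000 bp (adjusted p = 0.0663), 0.11 without chromosomes 10 to 14 (adjusted p = 1.00), 0.28 with 1 peak per gene (adjusted p = 0.531) and 0.37 with an overlap of 100 bp (adjusted p = 0.179). Without chromosomes 10 to 14, Fisher's exact test for library 2 gave 0.46 against wild-type-specific (adjusted p = 0.298) and 0.66 against mutant-specific body peaks (adjusted p = 0.348), and with 1 peak per gene 1.51 against the latter (adjusted p = 0.101). These settings hold fewer peaks, except the overlap of 100 bp, which keeps the sets and counts fewer peaks as overlapped. The cause was not tested. Library 2 kept its call against wild-type-specific body peaks beyond 5000 bp (1.65 points), with 1 peak per gene (1.65) and with an overlap of 100 bp (1.35).

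In the lists, beyond 5000 bp, 1 known GR target, 1 interferon gene, 2 AP-1 genes and 2 clock genes held a shared body peak, fewer by construction; by the RefSeq gene at the peak centre, 1 interferon gene did. Both alternatives were chosen after seeing the data. The difference between genotypes under Dex was 2.40 without chromosomes 10 to 14 and lay between 2.96 and 4.31 with each library left out, the lone sample being assumed to vary like the others. With the replicate number as a block it was 3.63 (exact p = 0.500, the smallest that 2 pairs allow). With 2 pairs of one value each, whether the numbers pair the samples cannot be checked. Depth is unknown, and merged lists carry no spread between samples, so a missing peak is not shown to be missing binding.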
